A study of Homo sapiens with 18 samples.

Results

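The genes of respiratory complex I described here were the protein-coding genes on chromosomes 1 to 22 whose symbols follow the NDUFA, NDUFB, NDUFC, NDUFS, NDUFV, NDUFAB or NDUFAF pattern with a number. The rule, which uses symbols and no measured value, found 43 genes among 19126 protein-coding genes. By their known places in the complex, 7 of the 43 encode nuclear core subunits, 9 accessory subunits of the peripheral arm, 1 (NDUFAB1) an accessory subunit of both arms, 18 accessory subunits of the membrane arm and 8 assembly factors. Binding and histone marks came from peak calls of ChIP-seq, the sequencing of immunoprecipitated chromatin, in the triple-negative breast cancer line MDA-MB-231. KDM2B, MYC, H3K4me3, H2AK119ub and H3K27me3 were profiled in the parental cells, and H3K27ac in cells carrying an empty vector. There were 18 libraries, 2 in each of 9 groups, among them input chromatin of both cell stocks and an ATF4 group that was not analysed here. With 1 peak list per target and no value per library, no value has a replicate error and no difference was tested, and depth per library is unknown.

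Complex I is the entry enzyme of the mitochondrial respiratory chain: it oxidises NADH in a peripheral arm that projects into the matrix, passes the electrons along flavin and iron-sulphur clusters to ubiquinone, and pumps protons through a membrane arm. Its nuclear subunits are encoded by housekeeping genes, many with CpG-rich promoters, and nuclear respiratory factor 1 (NRF1), the ETS-family factor GABP and YY1 are textbook regulators of such genes. KDM2B carries a CXXC domain that binds unmethylated CG dinucleotides and brings the Polycomb complex ncPRC1.1, which ubiquitinates H2AK119, while MYC with its partner MAX binds the E-box.

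The peak lists were also read at marker genes of several cell types. VIM, CD44, AXL, SNAI2, CAV1 and EGFR, genes active in this mesenchymal-like line, each had KDM2B, MYC, H3K4me3 and H3K27ac within 1 kb of a gene end. Of 7 luminal or hormone receptor genes, FOXA1, EPCAM and KRT8 also carried all 4, while ESR1, which encodes the oestrogen receptor, had a peak of none of the 6 targets and CDH1, the epithelial cadherin, had H2AK119ub only. The haematopoietic genes PTPRC and CD3E had neither KDM2B nor H3K27ac, while CD3E had H3K4me3 at 11.09-fold, MYC at 3.64-fold and both Polycomb marks. Among 389 olfactory receptor genes, 3 had KDM2B, 3 had MYC and 262 had H3K27me3.

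A promoter window from RefSeq (GRCh38.p14, from 250 bases before to 50 after a listed start) matched 37 of the 43 genes by symbol. NDUFS5, NDUFB5, NDUFB9, NDUFC2 and NDUFAF6 were among those with none there. The windows below are printed 5′ to 3′ on the gene's own strand. In the first set the capitals mark matches to an E-box (CACGTG), an NRF1 motif (GCATGCGC), an ETS motif (CCGGAAG) or a YY1 motif (AAGATGGC), searched on both strands. NDUFS7 (chr19:1383657-1383956, plus strand), a core subunit that holds the last iron-sulphur cluster before ubiquinone, is shown because its window was the only member window with an E-box, an NRF1 and a YY1 match together. NDUFAF5 (chr20:13784778-13785077, plus strand), the hydroxylase that modifies NDUFS7, is shown because its window held an E-box and NRF1 matches, as that of NDUFS7 did, while the gene had no KDM2B peak. NDUFS1 (chr2:206159395-206159694, minus strand), the largest core subunit of the peripheral arm, is shown because its ends carried the highest MYC fold of the 43 genes without an E-box in the window.
NDUFS7: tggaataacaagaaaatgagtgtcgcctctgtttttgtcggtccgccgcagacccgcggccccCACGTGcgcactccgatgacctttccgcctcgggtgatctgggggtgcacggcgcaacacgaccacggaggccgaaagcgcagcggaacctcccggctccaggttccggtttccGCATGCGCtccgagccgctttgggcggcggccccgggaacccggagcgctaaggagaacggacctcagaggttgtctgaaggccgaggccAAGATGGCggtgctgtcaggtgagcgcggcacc
NDUFAF5: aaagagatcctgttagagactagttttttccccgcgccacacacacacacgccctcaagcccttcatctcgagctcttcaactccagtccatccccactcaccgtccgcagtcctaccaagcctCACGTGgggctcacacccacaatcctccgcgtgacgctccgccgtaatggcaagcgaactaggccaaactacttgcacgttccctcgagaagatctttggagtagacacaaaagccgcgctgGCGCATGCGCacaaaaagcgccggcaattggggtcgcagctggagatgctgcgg
NDUFS1: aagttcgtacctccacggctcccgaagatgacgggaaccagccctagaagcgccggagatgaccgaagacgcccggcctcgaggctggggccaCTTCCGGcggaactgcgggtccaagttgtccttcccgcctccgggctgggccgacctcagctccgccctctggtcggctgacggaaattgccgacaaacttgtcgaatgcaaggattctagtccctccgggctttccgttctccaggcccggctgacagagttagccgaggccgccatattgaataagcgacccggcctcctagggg

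NDUFA5, an accessory subunit of the peripheral arm, has listed starts 43833 bp apart. The outer one (chr7:123601602-123601901, minus strand) carried no peak and the inner one (chr7:123557769-123558068, minus strand) carried MYC, H3K4me3 and H3K27ac. Both windows are shown, with capitals again marking motif matches. The only match, of the NRF1 motif on the opposite strand, is in the inner window.
NDUFA5 outer start: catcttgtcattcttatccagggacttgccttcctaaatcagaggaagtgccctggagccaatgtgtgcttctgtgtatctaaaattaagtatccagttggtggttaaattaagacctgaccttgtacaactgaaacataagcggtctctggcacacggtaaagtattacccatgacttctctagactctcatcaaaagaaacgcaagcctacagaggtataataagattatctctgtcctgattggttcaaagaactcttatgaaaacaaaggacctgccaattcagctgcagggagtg
NDUFA5 inner start: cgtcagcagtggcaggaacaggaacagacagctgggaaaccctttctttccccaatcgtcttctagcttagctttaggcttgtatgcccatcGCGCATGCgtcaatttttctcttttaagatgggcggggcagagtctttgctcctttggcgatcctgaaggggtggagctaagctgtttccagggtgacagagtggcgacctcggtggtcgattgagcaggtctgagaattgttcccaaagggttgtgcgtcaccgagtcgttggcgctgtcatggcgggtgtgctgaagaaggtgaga

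In the last pair the capitals mark every CG dinucleotide, the unit that the CXXC domain reads. NDUFB10 (chr16:1959288-1959587, plus strand), a membrane-arm subunit, had the most CG dinucleotides of the member windows at the outermost start, 39, and carried KDM2B at 4.78-fold. NDUFS4 (chr5:53560389-53560688, plus strand), a peripheral-arm subunit known from Leigh syndrome, had 10, at 40.3% G and C, and carried no KDM2B and the lowest MYC fold of the 43 genes.
NDUFB10: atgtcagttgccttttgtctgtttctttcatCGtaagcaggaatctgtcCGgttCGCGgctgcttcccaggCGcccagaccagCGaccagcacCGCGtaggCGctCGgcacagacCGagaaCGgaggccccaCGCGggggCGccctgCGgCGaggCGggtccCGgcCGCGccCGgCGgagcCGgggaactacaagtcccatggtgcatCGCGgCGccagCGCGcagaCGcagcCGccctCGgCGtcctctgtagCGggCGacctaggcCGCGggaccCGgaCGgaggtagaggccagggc
NDUFS4: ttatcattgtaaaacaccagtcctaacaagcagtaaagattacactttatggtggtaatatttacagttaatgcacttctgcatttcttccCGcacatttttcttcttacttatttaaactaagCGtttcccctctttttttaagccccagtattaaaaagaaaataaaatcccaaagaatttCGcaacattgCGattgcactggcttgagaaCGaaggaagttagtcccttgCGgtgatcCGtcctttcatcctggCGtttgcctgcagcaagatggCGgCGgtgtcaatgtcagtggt

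Nearly all complex I genes carried the marks of active promoters and MYC. A gene was counted when at least 1 bp of a peak lay within 1 kb of either end of its gene record. H3K4me3, a mark of active promoters, was present at 42 of 43 complex I genes (97.7%), against 70.1% of all protein-coding genes. H3K27ac, which marks active enhancers as well as promoters, was also present at 42 of 43 (97.7%), against 64.4% of all genes. MYC was present at 41 of 43 (95.3%), against 65.0% of all genes. NDUFA5 was the only member without H3K4me3 and without H3K27ac, and it lacked MYC too. MYC, H3K4me3 and H3K27ac occurred together at 41 of 43 complex I genes (95.3%), against 60.8% of all genes. Most genes with H3K4me3 had MYC in both sets, 41 of 42 complex I genes (97.6%) and 91.3% of all genes.

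KDM2B was present at 28 of 43 complex I genes (65.1%), against 48.3% of all genes. Each of those 28 also carried MYC, H3K4me3 and H3K27ac, so the share with all 4 was again 65.1%, against 46.4% of all genes. Among genes that already had MYC, H3K4me3 and H3K27ac, the order was the other way round: 28 of 41 complex I genes (68.3%) had KDM2B, against 76.4% of all such genes. KDM2B without MYC was found at 0 of 43 complex I genes, against 0.314% of all genes. MYC without KDM2B was found at 13 of 43 complex I genes (30.2%), against 17.0% of all genes. The KDM2B share also depended on peak strength: counting only peaks with a −log10 q-value of 5 or more, it was 17 of 43 complex I genes (39.5%), against 38.1% of all genes.

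The Polycomb marks were less frequent. H2AK119ub was found at 15 of 43 complex I genes (34.9%), against 46.6% of all genes, and H3K27me3, the mark of PRC2, at 2 of 43 (4.65%, NDUFA8 and NDUFA10), against 27.1% of all genes. Of the 43, 17 (39.5%) carried KDM2B, MYC, H3K4me3 and H3K27ac with neither Polycomb mark, against 27.1% of all genes.

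**Figure D1:**
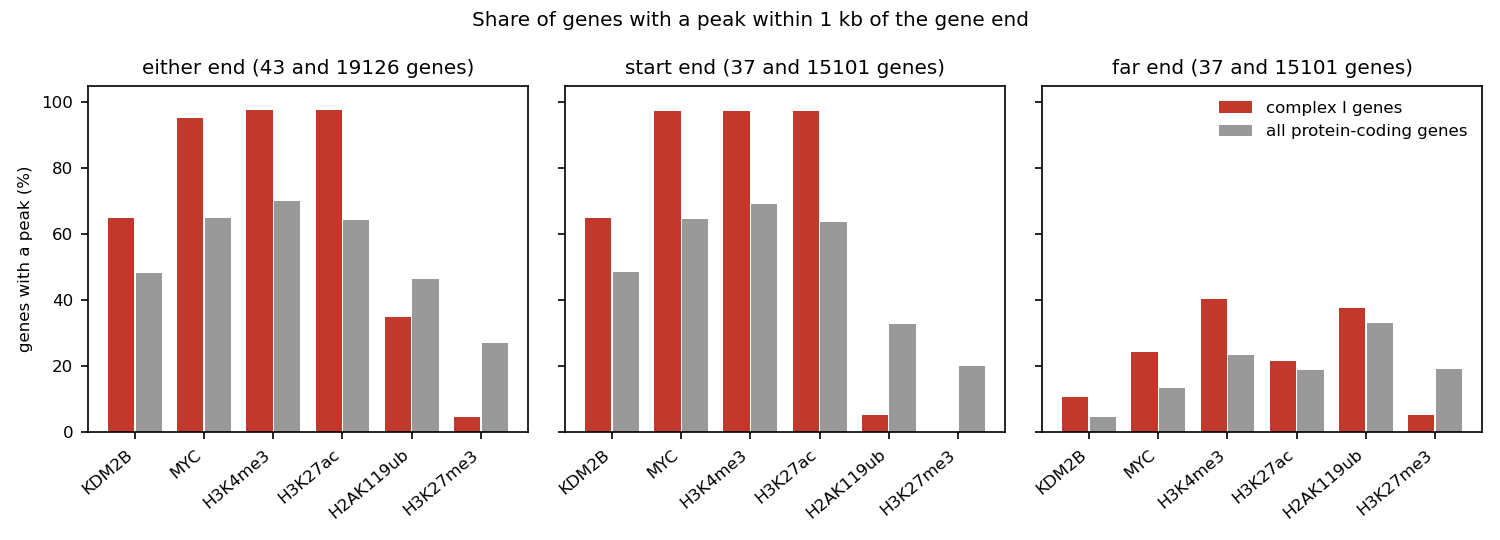
Percent of genes with a peak of each target within 1 kb of either end, of the start end and of the far end; red bars are complex I genes and grey bars are all protein-coding genes, with the number of each above the panel. At the start end MYC, H3K4me3 and H3K27ac stand at 97.3% of complex I genes and H3K27me3 at 0, while at the far end H2AK119ub stands at 37.8%.

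The strand of the 37 genes with a promoter window, and of 15101 genes in all, let the start end be told from the far end. MYC, H3K4me3 and H3K27ac were each at the start end of 36 of 37 complex I genes (97.3%), against 64.7%, 69.3% and 63.8% of all genes in that order, and the exception was NDUFA5. KDM2B was at the start end of 24 of 37 (64.9%), against 48.7% of all genes. H2AK119ub was at the start end of 2 of 37 (5.41%), NDUFB10 and NDUFAF8, against 32.8% of all genes, and H3K27me3 at that of 0 of 37, against 20.0% of all genes. The H2AK119ub of complex I genes thus lay mostly at the other end of the record.

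At the far end H2AK119ub was found at 14 of 37 complex I genes (37.8%), against 33.1% of all genes. It was at the far end and not at the start end in 12 of 37 (32.4%), against 11.9% of all genes. H3K27me3 was at the far end of 2 of 37 (5.41%), against 19.1% of all genes, and the share at the far end without the start end was also 5.41%, against 4.78% of all genes. KDM2B was at the far end of 4 of 37 (10.8%), against 4.75% of all genes, and those 4 were NDUFA7, NDUFAF3, NDUFB10 and NDUFS8. MYC was at the far end of 9 (24.3%, against 13.4% of all genes), H3K4me3 of 15 (40.5%, against 23.6%) and H3K27ac of 8 (21.6%, against 19.0%).

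Setting complex I genes beside genes with the same active marks left the H2AK119ub contrast in place. Among genes with MYC, H3K4me3 and H3K27ac at the start end, H2AK119ub was at the start end of 2 of 36 complex I genes (5.56%), against 20.2% of all such genes. It was at the far end of 14 of 36 (38.9%), against 27.7%. H3K27me3 was at the start end of 0 of 36, against 1.83%, and at the far end of 2 of 36 (5.56%), against 4.60%. KDM2B was at the start end of 24 of 36 (66.7%), against 76.7% of all such genes.

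Fold was the authors' signal over background at a peak's summit, and each gene was given the highest fold of its peaks at either end. Folds rank genes only within a target's own list. The 28 complex I genes with KDM2B had a median fold of 3.30, against 3.91 over 9246 genes with KDM2B. Of those 28, 13 lay below the lower quartile of all genes, 3.28, and 3 lay above the upper quartile, 4.73. MYC had a median fold of 9.87 at 41 complex I genes, against 11.53 over all genes with MYC, with 12 of 41 above the upper quartile of all genes, 17.73, and 8 below the lower quartile, 7.26. H3K4me3 had a median fold of 43.74 at complex I genes, against 43.41 over all genes with it, and H3K27ac one of 26.44, against 25.14. The median of H2AK119ub was 2.54 over 15 complex I genes, against 2.88 over all genes with H2AK119ub. Complex I genes thus ranked low among KDM2B-bound genes and near the middle for the active marks.

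**Figure D2:**
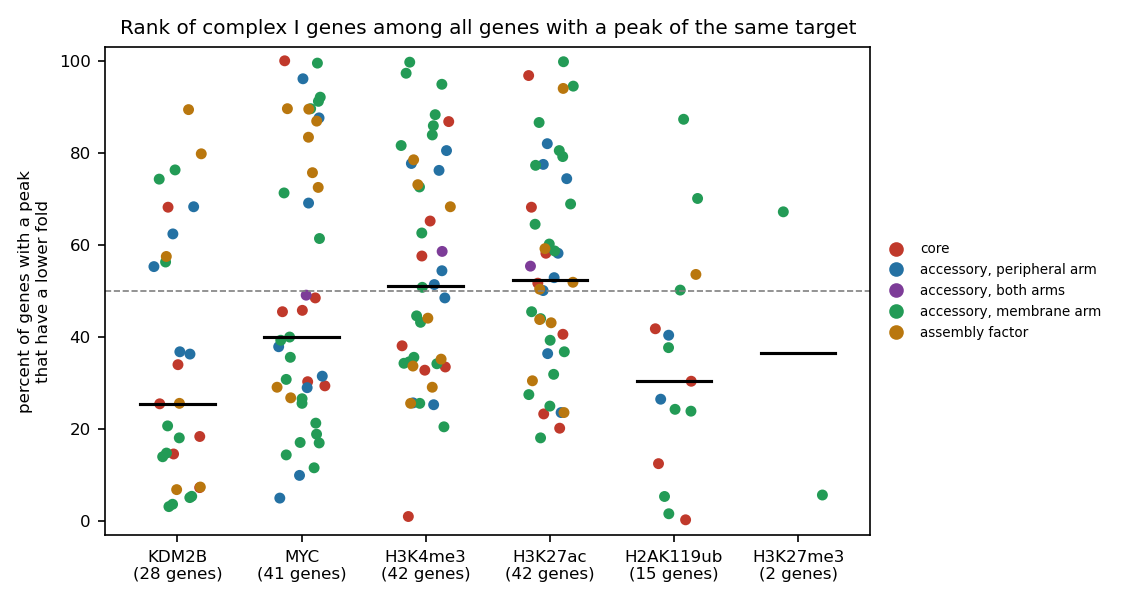
Rank of each complex I gene with a peak, as the percent of all genes with a peak of that target whose fold is lower (vertical axis, percent); points are genes coloured by role and black bars are medians. The KDM2B points lie mostly under the dashed line at the middle rank (10 of 28 have a fold above the median of all genes), while 22 of 42 H3K4me3 folds and 25 of 42 H3K27ac folds are above it.

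The core subunits carry the flavin, the iron-sulphur clusters and the ubiquinone site. Of the 7 core genes 6 are described here, so the statements below do not cover the whole core set. Those 6 all had KDM2B, MYC, H3K4me3 and H3K27ac, which occurred together at 46.4% of all genes. NDUFV1, which binds NADH and the flavin, had 4.48-fold KDM2B, the highest of the core genes, with MYC at 8.22-fold, H3K4me3 at 47.63-fold and H3K27ac at 12.76-fold. NDUFV2, its iron-sulphur partner, had KDM2B at 2.99-fold and MYC at 11.26-fold. NDUFS1 had KDM2B at 3.49-fold and MYC at 86.75-fold, and only 1 of all genes had a higher MYC fold. Apart from NDUFS1, the core genes with MYC had folds between 8.06 and 11.26.

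NDUFS3, a subunit of the ubiquinone-reducing module, had KDM2B at 3.10-fold and MYC at 8.06-fold. NDUFS7 had KDM2B at 3.30-fold and MYC at 10.81-fold, beside the E-box match shown above. NDUFS8, an iron-sulphur subunit, had KDM2B at 2.73-fold, the lowest of the core genes, and MYC at 10.77-fold. That KDM2B peak was at the far end, 6159 bp from the NDUFS8 start and 2185 bp from that of TCIRG1. The start end of NDUFS8 had KDM2B at 2.13-fold. The order of KDM2B among core genes was not that of MYC: NDUFV1 was highest for KDM2B and next to lowest for MYC.

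The accessory subunits of the peripheral arm had KDM2B in 5 of 9 and MYC in 8 of 9, against 48.3% and 65.0% of all genes. The KDM2B-bound genes were NDUFA2 at 4.48-fold, NDUFA6 at 4.30-fold, NDUFS6, a zinc-binding subunit, at 4.08-fold, NDUFA7 at 3.59-fold and NDUFV3 at 3.58-fold. The 3.59-fold peak of NDUFA7 was at the far end, 137 bp from the start of CD320, and its start end had KDM2B at 3.43-fold. The MYC folds of these 5 genes were between 8.47 at NDUFA2 and 35.52 at NDUFA7. The KDM2B-free genes were NDUFA5, NDUFA9, NDUFA12 and NDUFS4. The lowest MYC folds of all 41 members with MYC were among them, 3.07 at NDUFS4 and 4.25 at NDUFA9, which binds a nucleotide cofactor near the ubiquinone site. NDUFAB1, the mitochondrial acyl carrier protein, had MYC at 11.36-fold, H3K4me3 at 45.96-fold and H3K27ac at 27.95-fold and no KDM2B.

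The accessory subunits of the membrane arm all had MYC, H3K4me3 and H3K27ac, and 11 of 18 had KDM2B. Over all genes with those 3 targets, 76.4% had KDM2B. NDUFB10 had the highest active-mark folds of the 43 genes, H3K4me3 at 76.44-fold and H3K27ac at 114.13-fold, with KDM2B at 4.78-fold and MYC at 54.33-fold. Both active-mark summits lay at chr16:1964506, beyond the end of the NDUFB10 record at 1961975 and 4968 bp from its listed start. The KDM2B summit lay 166 bp from that start. NDUFB5 had KDM2B at nearly the same fold, 4.72, and MYC at only 6.16-fold. The weakest KDM2B of the family was also in this arm, 2.49-fold at NDUFA11 and 2.52-fold at NDUFB6, with H3K4me3 at 61.08-fold at NDUFA11 and at 43.76-fold at the start end of NDUFB6, whose strongest H3K4me3, 64.26-fold, was at its far end. NDUFC1 had KDM2B at 4.12-fold and MYC at 28.02-fold.

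Of the other genes of the membrane arm, NDUFA3, NDUFA8, NDUFB2, NDUFB3, NDUFB4, NDUFB8 and NDUFB9 had no KDM2B at their ends. Their MYC folds were between 4.60 at NDUFA8 and 25.64 at NDUFB2. NDUFA3 had the lowest H3K27ac of the members with that mark, 10.15-fold, beside H3K4me3 at 49.86-fold, and the next lowest H3K27ac was at NDUFS7, 11.12-fold. NDUFS5 had H3K4me3 at 30.93-fold, the lowest in the membrane arm, and still had KDM2B at 2.99-fold. NDUFB1 had H3K27ac at 65.38-fold, the third highest after NDUFB10 and NDUFS1 (73.97-fold), and NDUFAF3 followed at 63.97-fold. NDUFB1 also had the fourth highest H3K4me3 fold, 55.79, after NDUFB10, NDUFB6 and NDUFA11. Both summits of NDUFB1 lay nearer to the start of CPSF2 than to its own. The distances were 167 bp against 430 bp for H3K27ac and 291 bp against 554 bp for H3K4me3.

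Assembly factors are not part of the finished enzyme, and 6 of these 8 had KDM2B. Over all genes the KDM2B share was 48.3%, and among genes with MYC, H3K4me3 and H3K27ac it was 76.4%. NDUFAF6, needed early in assembly, had the highest KDM2B fold of the 43 genes, 5.60, and MYC at 25.59-fold. An end of CCNE2 lay 894 bp from an end of the NDUFAF6 record. Without a promoter window for NDUFAF6, its summits were not compared with the starts of either gene. NDUFAF3, which acts with NDUFAF4 on the ubiquinone-reducing module, had KDM2B at 4.97-fold and MYC at 17.99-fold. NDUFAF4 itself had KDM2B at 2.74-fold and MYC at 16.93-fold, so these partners were alike in MYC and apart in KDM2B. NDUFAF8, the stabilising partner of NDUFAF5, had KDM2B at 4.17-fold and MYC at 23.54-fold. Its KDM2B summit lay 216 bp from the start of TEPSIN and 472 bp from its own nearest start. Its MYC summit was nearer to its own start. NDUFAF7, a methyltransferase needed for assembly, had KDM2B at 3.30-fold and MYC at 21.32-fold.

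NDUFAF2, a relative of the subunit NDUFA12 that it precedes in assembly, had KDM2B at 2.70-fold and MYC at 25.49-fold, while NDUFA12 had no KDM2B and MYC at 8.01-fold. NDUFAF1 and NDUFAF5 had no KDM2B, and their MYC folds, 8.04 and 7.60, were the lowest of the assembly factors. The assembly factors had a median MYC fold of 19.65, against 10.79 for core subunits, 8.98 for the peripheral arm and 8.72 for the membrane arm. The ranges overlapped: assembly factors spanned 7.60 to 25.59 and the membrane arm 4.60 to 54.33.

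**Figure D3:**
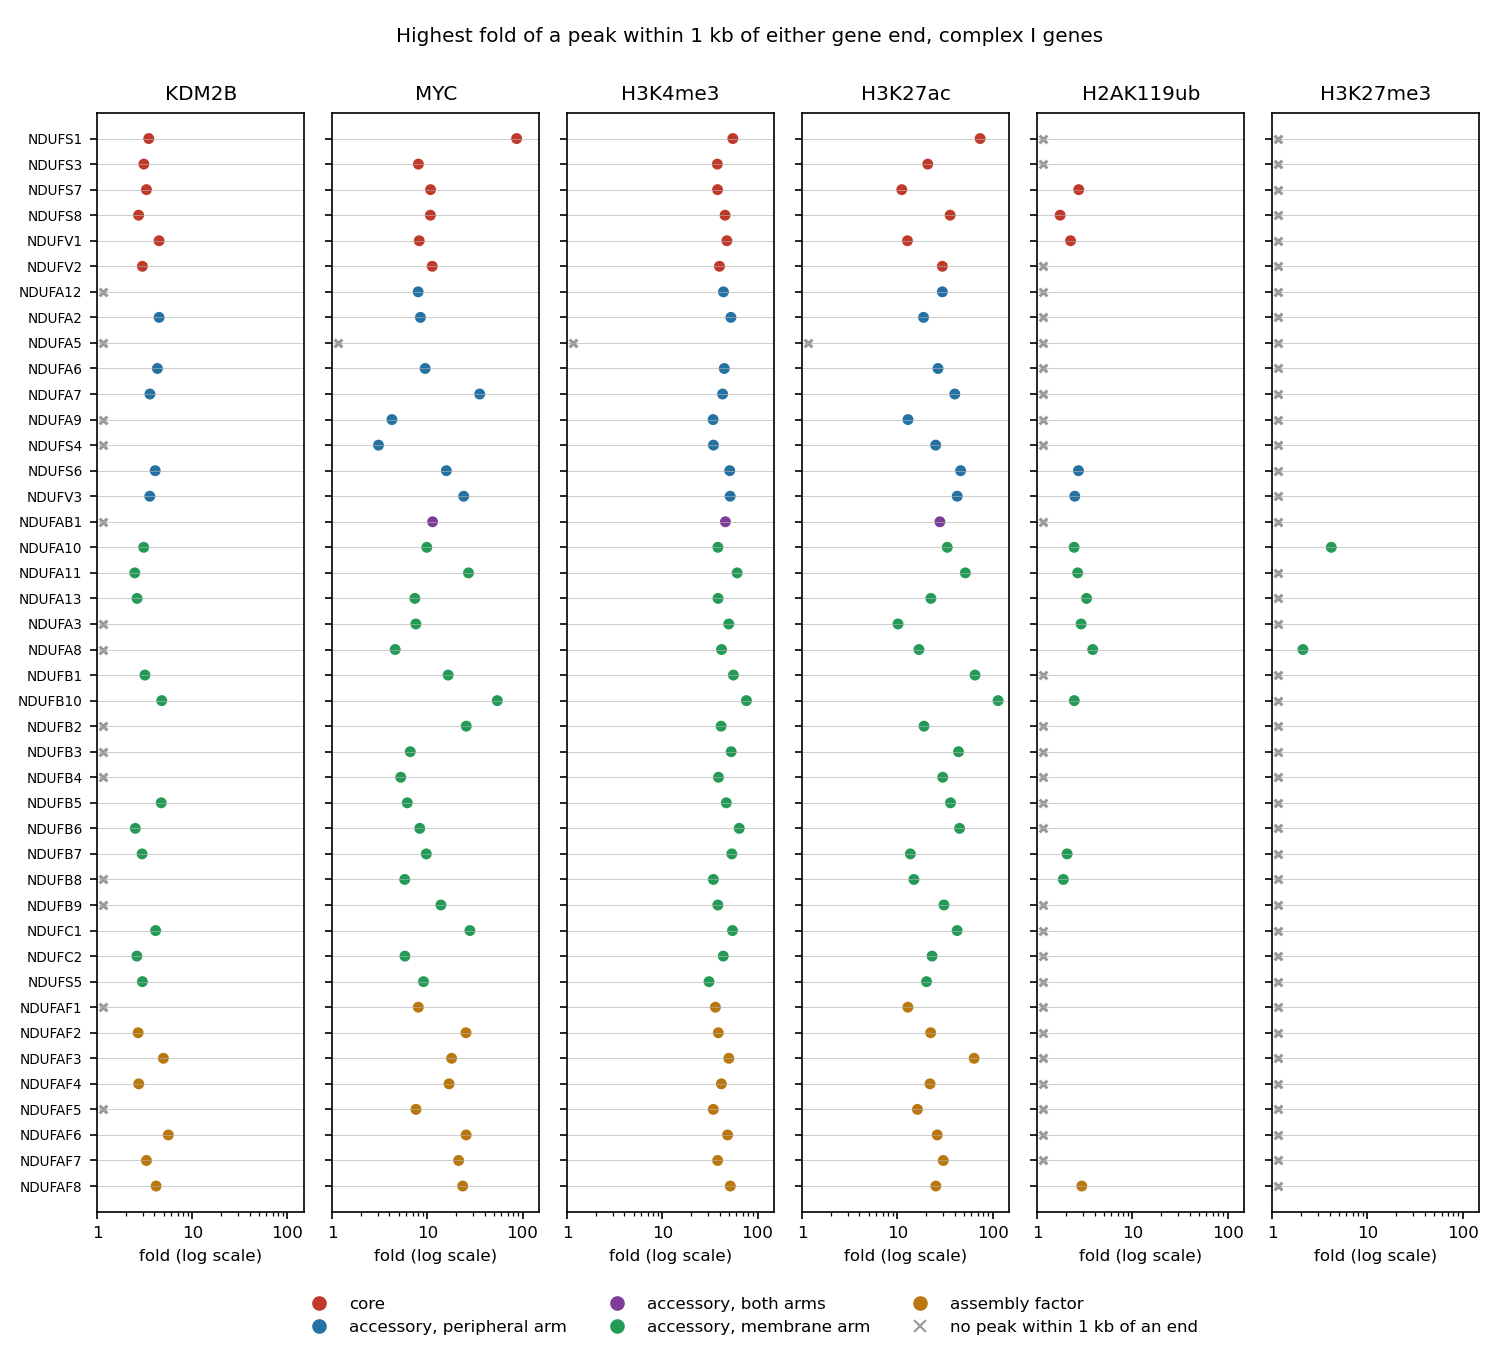
Highest fold (horizontal axes, log scale) of a peak of each target within 1 kb of either end of 42 complex I genes, which run down the page by role; grey crosses mark genes without a peak. H3K4me3 folds fall between 30.93 and 76.44 except at NDUFA5 (no peak), KDM2B folds stay between 2.49 and 5.60, and MYC folds spread from 3.07 to 86.75.

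Complex I genes with KDM2B had a higher median MYC fold than those without. The median MYC fold was 13.55 in the 28 genes with KDM2B (range 5.82 to 86.75), against 7.58 in the 13 with MYC and without KDM2B (3.07 to 25.64). The medians of H3K4me3 were 47.30 with KDM2B and 38.56 without, and those of H3K27ac 30.01 and 22.15. The ranges overlapped in all 3 targets, and the same order held across all genes with the 3 marks: MYC had a median of 13.26 with KDM2B (8884 genes), against 8.26 without it (2737 genes). Among complex I genes with both, the Spearman correlation of the KDM2B and MYC folds was 0.24 over 28 genes, against 0.15 over 9186 genes, as a description across genes whose peaks share libraries and neighbours.

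The promoter windows of genes with KDM2B held more CG dinucleotides. In the window at the outermost listed start, the median was 25.5 in the 24 complex I genes with KDM2B at the start end (range 9 to 39), against 20 in the 13 without it (3 to 31). Over all genes it was 29, against 11, and against 22 in genes with MYC, H3K4me3 and H3K27ac at the start end and no KDM2B. The complex I windows overlapped widely. NDUFAB1 and NDUFA3 had 31 CG dinucleotides each and no KDM2B at the start end, while NDUFC1 had 10 and NDUFAF3 had 9 and both had KDM2B. NDUFAF3 has 3 further listed starts inside its record, with 27, 27 and 31, and NDUFC1 has inner starts with 20 and 21, and each of these windows overlapped a KDM2B peak. The window at a further NDUFC1 start had 11 and overlapped no KDM2B peak, nor did the one at its outermost start.

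**Figure D4:**
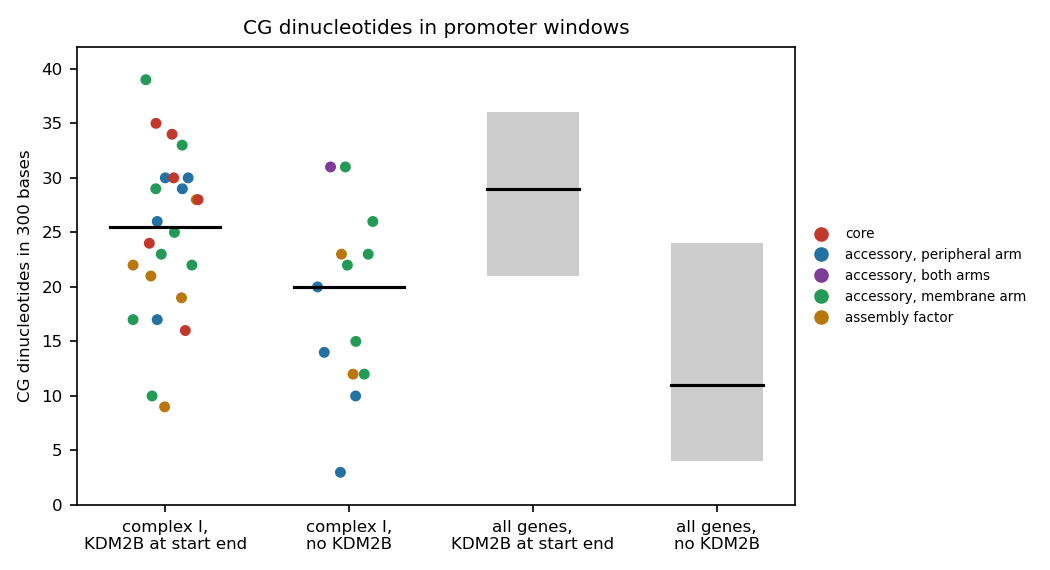
CG dinucleotides in the 300-base window at the outermost listed start (vertical axis, count); points are complex I genes with and without KDM2B at the start end, coloured by role, with medians of 25.5 and 20 as black bars. The grey boxes span the quartiles of all genes with KDM2B (21 to 36, median 29) and without it (4 to 24, median 11).

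The motif matches differed in how far they stood from all promoters. An NRF1 match was in 7 of 37 complex I windows (18.9%), against 4.19% of 15101 windows, and the genes were NDUFA6, NDUFA8, NDUFB4, NDUFS6, NDUFS7, NDUFAF4 and NDUFAF5. A YY1 match was also in 7 of 37 (18.9%), against 3.87%, in NDUFA3, NDUFA6, NDUFA7, NDUFA9, NDUFS4, NDUFS7 and NDUFAF8. An E-box was in 4 of 37 (10.8%), against 8.71%, in NDUFA7, NDUFA11, NDUFS7 and NDUFAF5. An ETS match was in 6 of 37 (16.2%), against 14.3%. Among windows of genes with MYC, H3K4me3 and H3K27ac at the start end, the shares were 19.4% against 6.06% for NRF1, 19.4% against 5.72% for YY1, 11.1% against 10.7% for the E-box and 16.7% against 21.1% for ETS. The NRF1 and YY1 motifs were thus the 2 whose share of complex I windows was well over that of all windows in both settings, and this was not tested.

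Each of the 7 YY1 matches read in the given orientation and began 10 to 25 bases after the start, as the last run of capitals in the NDUFS7 window shows. Over all windows with a YY1 match, 323 of 584 (55.3%) read that way at or after the start. The YY1 motif overlaps none of the other motif matches in these 7 windows. The 36 complex I genes with MYC at the start end included 32 without an E-box in the window.

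Summits of KDM2B and MYC were measured from the nearest listed start. The peaks were picked for reaching within 1 kb of the start end, so narrow ones could not have summits far from it. No value over all genes is set beside these distances. The strongest KDM2B peak at the start end had its summit at a median of 192 bp from the nearest listed start over 24 genes, and 15 of 24 lay within 250 bp and 22 of 24 within 500 bp. By direction, 17 summits lay after the start and 7 before it. For MYC the median was 214 bp over 36 genes, with 21 within 250 bp, 21 after the start and 15 before it. The KDM2B and MYC summits of the same gene were a median of 237 bp apart, within 250 bp in 13 of 24 genes. KDM2B peaks were narrow, a median of 455 bp wide, against 1588 bp for MYC, 2974 bp for H3K27ac and 6990 bp for H3K4me3.

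**Figure D5:**
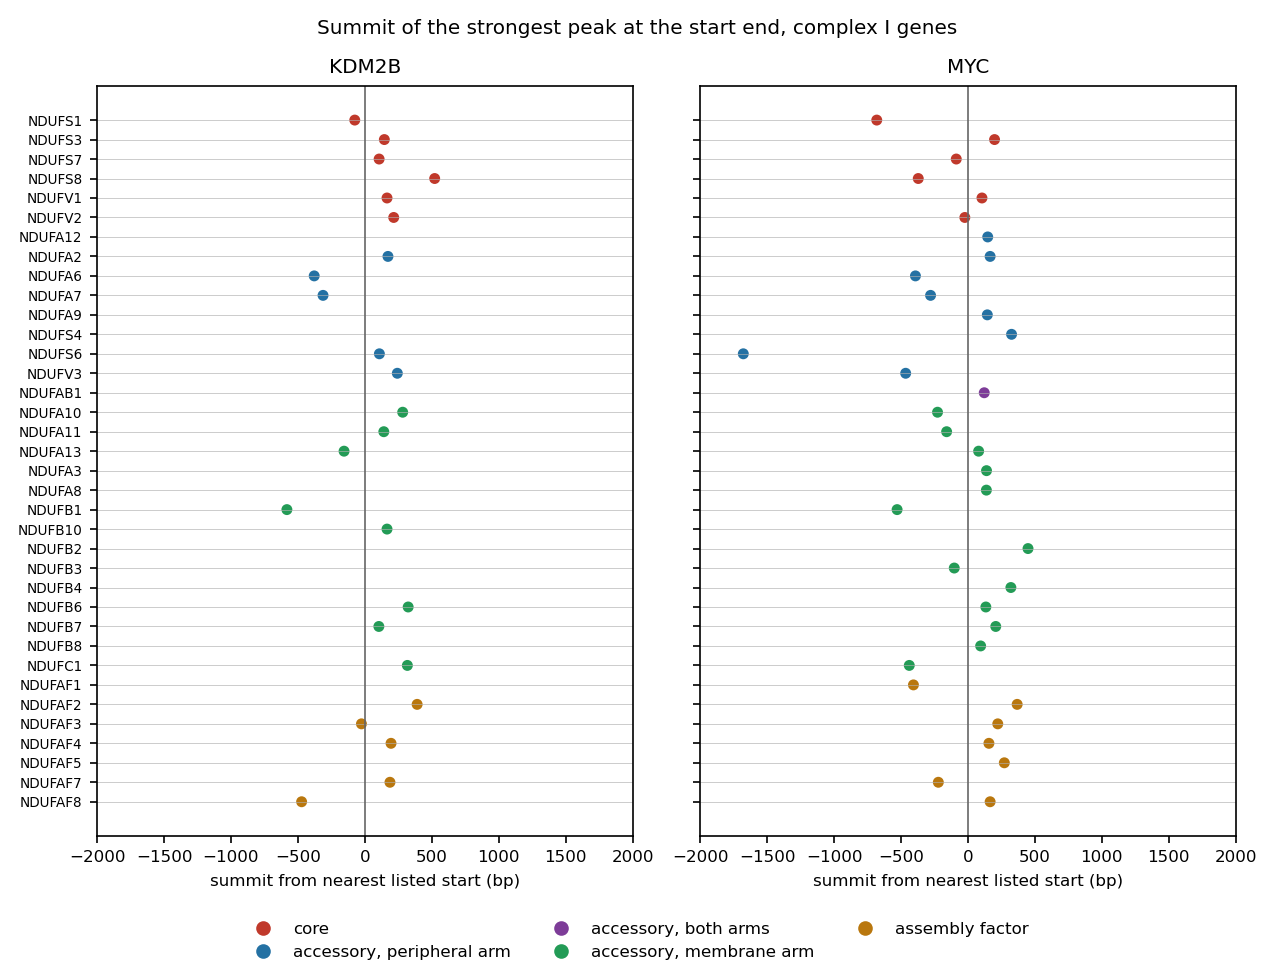
Position of the summit of the strongest KDM2B (left) and MYC (right) peak at the start end, in bp from the nearest listed start, negative before it; each point is a complex I gene, coloured by role. Most KDM2B summits (17 of 24) lie after the start; the MYC summit of NDUFB10, 5139 bp from its start, is outside the axis.

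At the ends of the 28 KDM2B-bound complex I genes lay 40 KDM2B peaks. All 40 overlapped H3K4me3 and H3K27ac by at least 1 bp, and 39 (97.5%) overlapped MYC. Of the 10119 KDM2B peaks within 1 kb of an end of any gene, 10065 overlapped H3K4me3 (99.5%), 9614 overlapped H3K27ac and 10007 overlapped MYC (98.9%). H2AK119ub overlapped 2 of the 40 complex I peaks (5.0%) and 21.5% of the 10119, and H3K27me3 overlapped 0 of 40 and 2.85% of the 10119.

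Another protein-coding gene had an end, its start or its far end, within 2 kb of either end of 32 of 43 complex I genes (74.4%), against 36.8% of all genes. KDM2B was at 24 of these 32 (75.0%), against 61.5% of all genes with such a neighbour. It was at 4 of the 11 complex I genes without one (36.4%), NDUFV1, NDUFV2, NDUFA10 and NDUFS5, against 40.7% of all genes without one. MYC was at 10 of the 11 (90.9%), against 55.6%. The MYC share of complex I genes was thus above that of all genes also where no neighbour was near. The KDM2B share was above that of all genes at genes with a neighbour and close to it at the 11 genes without one. Neither difference was tested.

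The highest MYC folds of the family were next to other genes. The MYC peak at NDUFS1 (chr2:206157864-206162017 in hg38) had its summit 681 bp from its own nearest start and 230 bp from that of EEF1B2, which encodes a translation elongation factor. At NDUFB10, whose record ends 83 bp from that of the ribosomal protein gene RPS2, a single MYC peak of 7488 bp (chr16:1959198-1966685) covered both ends with its summit 5139 bp from the NDUFB10 start. At NDUFA7 the 35.52-fold peak (chr19:8306147-8308809) was at the far end, 128 bp from the start of CD320, the transcobalamin receptor gene, and its own start end, beside the ribosomal protein gene RPS28, had MYC at 17.53-fold. The NDUFC1 summit was nearer to NAA15, 167 bp away, than to its own start, 438 bp away.

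Over the 36 genes with a start and a MYC peak, the strongest MYC summit was nearer to the listed start of another gene in 7, with a median fold of 21.32, and nearer to the gene's own start in 29, with a median fold of 9.49. The median folds at other and own starts were 53.04 and 41.77 for H3K4me3, and 44.98 and 22.47 for H3K27ac. For KDM2B the own start was nearer in 20 of 24 genes, with median folds of 3.30 at own and 3.38 at other starts. A neighbour without a listed start could not be counted as nearer, so that the MYC summit of NDUFB10, 5139 bp from its start and 7376 bp from that of TBL3, was counted at its own start. Which gene of a pair the binding belongs to was not tested.

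NDUFA10, a membrane-arm subunit with a nucleoside kinase fold, had the most bases under Polycomb peaks in the family, in a record of 132901 bp. Its record with 1 kb around it held 43 H2AK119ub peaks over 29079 bp and 15 H3K27me3 peaks over 12580 bp. In much shorter records, H2AK119ub covered 6524 bp at NDUFS7 (11678 bp long) and 5861 bp at NDUFA11 (12562 bp long). The start end of NDUFA10 had KDM2B at 3.09-fold, MYC at 9.87-fold, H3K4me3 at 38.33-fold and H3K27ac at 33.42-fold, and neither Polycomb mark. The far end had H3K27me3 at 4.17-fold and H2AK119ub at 2.44-fold. NDUFA8, the other gene with H3K27me3, had it at 2.10-fold at the far end with H2AK119ub at 3.83-fold, the highest of the family, while its start end had MYC at 4.60-fold and H3K4me3 at 41.87-fold. The far end of NDUFA8 also had MYC at 2.70-fold, and inside the record of NDUFA10 lay peaks of H3K4me3 at 9.03-fold and H3K27ac at 5.63-fold that overlapped H2AK119ub peaks. The next highest H2AK119ub folds were 3.30 at NDUFA13, 2.94 at NDUFAF8 and 2.89 at NDUFA3, and the lowest were 1.74 at NDUFS8 and 1.88 at NDUFB8.

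NDUFA5 lacked all 6 targets at the ends of its record. At its inner start it had MYC at 4.94-fold (chr7:123557292-123557794), H3K4me3 at 33.78-fold and H3K27ac at 14.62-fold, with no KDM2B. The inner window held 15 CG dinucleotides and the outer one 3. Over whole records with 1 kb around them, MYC, H3K4me3 and H3K27ac were at 43 of 43 complex I genes and KDM2B at 29 of 43. The same counting found MYC at 73.7%, H3K4me3 at 78.0%, H3K27ac at 72.6% and KDM2B at 54.7% of all genes.

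The other respiratory genes were counted in the same way. KDM2B was at 6 of 11 complex I assembly factors named otherwise (such as ACAD9 and TIMMDC1) and 6 of 8 genes of complex II and its assembly factors. It was at 6 of 9 genes of complex III, 6 of 9 of complex IV and 11 of 17 of ATP synthase. Over all genes the shares were 48.3% for KDM2B and 65.0% for MYC. MYC was at 11 of 11, 8 of 8, 9 of 9, 8 of 9 and 16 of 17 of the same lists. Their median KDM2B folds were 3.82, 3.99, 3.70, 3.85 and 3.59, all above the 3.30 of complex I genes and 4 of the 5 below the 3.91 of all genes. The 10 regulators of respiratory genes had KDM2B in 9, at a median of 4.48-fold, and MYC in 10, at a median of 24.36-fold, with PPRC1, a coactivator of NRF1, at 72.96-fold. Of 77 mitochondrial ribosomal protein genes, 44 had KDM2B (57.1%) and 75 had MYC. H2AK119ub was at 15 of 43 complex I genes (34.9%), against 3 of 11 other complex I assembly factors and 2 of 8 genes of complex II and its assembly factors. It was at 3 of 9 genes of complex III, 0 of 9 of complex IV, 1 of 17 of ATP synthase, 2 of 10 regulators and 16 of 77 mitochondrial ribosomal protein genes. H3K27me3 was at none of the genes of complexes II to IV, ATP synthase, the regulators and the other assembly factors, and at 3 of 77 mitochondrial ribosomal protein genes. Over all genes the shares were 46.6% for H2AK119ub and 27.1% for H3K27me3.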

How the data were processed

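Titles of the libraries gave the antibody and the cell stock, and so the groups. Whether a group's 2 libraries are separate cultures is not stated, and the peak lists do not resolve them. The submitters' processing notes name Trim Galore without a version, Bowtie2 2.4.5, MACS2 2.2.7.1 and SAMtools 1.6, and build hg38. The control and any pooling before calling are not given in the sources used here. Each deposited peak has a fold, the ratio at its summit of ChIP signal to background as the authors' caller computed it, a −log10 q-value from that caller, and a deposited score that was not used. All lists are in narrow-peak form, also for the broad marks H3K27me3 and H2AK119ub, which such a caller can split into many peaks. The lists hold no read counts.

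Gene records, listed starts and promoter windows came from RefSeq (GRCh38.p14). Genes were assigned the peaks that reached within 1 kb of either end of their record by 1 bp or more. The start end is known for 37 of the 43 genes. Motifs were searched on both strands in the window at the outermost listed start. Counts, shares and medians were computed with Python 3.11.15, pandas 2.3.3 and NumPy 2.4.6. The overlap step was tested on simulated data, where 100 of 100 peaks planted inside the window were recovered and 0 were misplaced. Those peaks were planted at long genes far from other gene ends, so the check does not cover genes with a near neighbour. No test was made, since no replicate is resolved. Tried as well were 500 bp and 2500 bp windows, only peaks with −log10 q of 5 or more, summits in place of peaks, at least 200 bp of overlap, the start end only, the whole record, the 15000 peaks of highest fold per list, genes without a neighbour within 2 kb and, added after seeing the data, the RefSeq promoter windows.

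Values of 1 core gene are in the counts and medians but are not reported here on their own. Named genes were the other core subunits, the assembly factors, the 4 highest and 2 lowest members of each target, all members of counts of 5 or fewer, and genes that lack a target. NDUFA2, NDUFA6, NDUFAB1, NDUFV3, the second tier of H2AK119ub or H3K27ac genes and other names outside that rule were chosen after their values were seen. The members and the gene lists were chosen with earlier results of these data known.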

Additional observations from a re-analysis of the deposited data

How the results depend on the processing

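No paired analysis was possible because each target has 1 peak list that does not resolve its libraries. Of 146 values recomputed under 10 settings, 116 kept within 1.5 times the reported count or within the interval of the reported median, and 30 did not. With peaks of −log10 q of 5 or more, KDM2B was at 17 complex I genes. KDM2B, MYC, H3K4me3 and H3K27ac together were also at 17 (39.5%, against 36.6% of all genes). MYC without KDM2B was at 24 (55.8%, against 24.7%), H2AK119ub at 7 (16.3%, against 29.7%) and H3K27me3 at 1 (2.33%, against 21.4%). Median folds were 4.12 for KDM2B and 4.17 for H3K27me3. With the RefSeq promoter windows, KDM2B was at 17 of 37 genes, and all 4 together were also at 17 (45.9%, against 34.7% of all genes). MYC without KDM2B was at 20 (54.1%, against 28.2%), and H2AK119ub and H3K27me3 were at 0 (against 20.6% and 16.2%). At the start end only, H2AK119ub was at 2 (5.41%, against 32.8% of all genes) and H3K27me3 at 0 (against 20.0%). With windows of 2500 bp H3K27me3 was at 4 genes (9.3%, against 32.3%). With summits inside the window, 3 genes had KDM2B without MYC (6.98%, against 2.0%). With the 15000 peaks of highest fold, H2AK119ub was at 1 gene (fold 3.83, 2.33% against 11.2%) and H3K27me3 at 0 (against 6.6%). Among the 11 genes without a neighbour within 2 kb, KDM2B was at 4 (36.4%, against 40.7% of all such genes). MYC, H3K4me3 and H3K27ac were at 10 each (90.9%, against 55.6%, 60.9% and 55.3%). All 4 were at 4 (36.4%, against 38.4%) and MYC without KDM2B at 6 (54.5%, against 15.4%). H2AK119ub was at 3 (27.3%, against 44.7%) and H3K27me3 at 1 (9.09%, against 32.3%). Median folds were 38.59 for H3K4me3, 2.24 for H2AK119ub and 4.17 for H3K27me3. Fewer peaks or genes enter under the stricter, start-end and no-neighbour settings. The KDM2B share was 39.5%, against 38.1% of all genes, with the stricter threshold and 45.9%, against 36.2%, in the promoter windows. Libraries are not resolved, so neither their spread nor a limit set by depth is known.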

Other observations

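Some complex I genes carried active sites well inside their records, away from both ends. NDUFA12, a peripheral-arm subunit, had an H3K27ac peak of 8019 bp at 73.63-fold inside the record, against 29.67-fold at its start end. MYC lay under the same stretch at 7.81-fold, close to the 8.01-fold at the start end, and H3K4me3 reached 18.27-fold there, against 43.84-fold at the start end. No KDM2B peak lay in the record of NDUFA12. NDUFAF6 had KDM2B at 5.71-fold inside its record, slightly above the 5.60-fold at its ends, within an H3K4me3 peak of 5056 bp at 34.83-fold. A further site inside NDUFAF6 had MYC at 18.89-fold, H3K4me3 at 37.02-fold, H3K27ac at 25.59-fold and KDM2B at 3.53-fold. Whether these sites are starts of NDUFA12 and NDUFAF6 transcripts or of other transcripts was not tested.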
